A study of Mus musculus with 6 samples.

Results

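The genes described here encode the hyaluronan-based matrix of the brain: the lecticans versican (Vcan), brevican (Bcan), neurocan (Ncan) and aggrecan (Acan), the tenascins Tnc and Tnr, the link protein Hapln1, the membrane proteoglycan Cspg5 and the receptor phosphatase Ptprz1. They were chosen by gene symbol, with earlier results of these data known, and make up 9 of the 19937 genes measured. Each was read by 1 probe set that carries a single gene symbol in the platform annotation, so no choice between probe sets arose for any of them. The samples were primary neurospheres, floating colonies of neural precursor cells, grown from the hippocampus of male C57BL/6J mice aged 8 to 12 weeks in medium with EGF and bFGF. The title of every sample calls them big neurospheres, without saying how size was judged. In the norepinephrine group, 3 samples were grown with 10 µM norepinephrine, a monoamine transmitter. In the KCl group, 3 samples were grown with 15 mM potassium chloride, which depolarises neurons. Both groups were collected on day 14, and every sample had its own array. Untreated spheres were not analysed here, and a difference therefore cannot be assigned to either treatment alone. The labels call the samples biological replicates without saying whether each came from its own animal or culture, so the p-values cover only the spread between samples, which may be technical.

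Hyaluronan is a long sugar chain laid down at the cell surface, and it is the backbone of brain matrix. Lecticans bind hyaluronan at one end, where link proteins clamp the contact, and bind tenascins at the other, and they carry chondroitin sulfate chains in between. In the adult brain these molecules form perineuronal nets around neurons, and in neurogenic zones Tnc and Ptprz1 are known from radial glia and neural stem cells. In bulk samples of this kind, fewer cells of a type and less RNA per cell cannot be told apart.

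All values are deposited log2 expression values, and differences are norepinephrine minus KCl on that log2 scale. Precision is limited by having 3 arrays in each group. The array of KCl replicate 1 stood apart. Its standard deviation over all named probe sets was 1.38, against 1.62 to 1.78 on the other 5 arrays. Values without it are therefore given for each of the 9 genes and for each list of matrix genes. For other genes they are given where they differ by more than 1.5 times. Markers of astrocytes averaged 9.57 to 9.66 on the norepinephrine arrays and 8.56 to 8.99 on the KCl arrays (12 of 12 markers measured). Neural stem cell markers averaged 9.29 to 9.39 with norepinephrine and 8.93 to 9.21 with KCl (9 of 9). Markers of oligodendrocyte precursors averaged 8.56 to 8.71 with norepinephrine and 8.36 to 8.52 with KCl (8 of 8). Single markers were mixed, with 4 of 9 stem cell and 3 of 8 precursor markers lower with norepinephrine, against 1 of 12 for astrocytes. The median difference was 0.67 for astrocytes, 0.35 for stem cells and 0.15 for precursors. Without KCl replicate 1 it was 0.41, 0.13 and 0.28. Astroglia, stem cells and precursors are known to express many of the 9 genes, and the part of these marker differences in the results was not tested. Lists for other cells the cultures could hold overlapped between the groups, at 6.24 to 6.40 with norepinephrine and 6.33 to 6.95 with KCl for microglia and macrophages (8 of 8), 6.12 to 6.34 and 6.10 to 6.71 for endothelium (6 of 6), and 6.50 to 6.69 and 6.36 to 6.98 for pericytes and fibroblasts (8 of 8). Means for mature oligodendrocytes (7 of 8) were 6.54 to 6.64 with norepinephrine and 6.52 to 6.97 with KCl, those for neurons (9 of 9) 7.26 to 7.48 and 7.09 to 7.41, and those for ependyma (5 of 5) 6.81 to 6.96 and 6.70 to 7.10. No marker was listed at 0, which values of this kind do not reach, and without scanner files presence could not be judged.

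None of the 9 genes passed the test between the treatments. In the limma fit over 21640 named probe sets, their adjusted p-values lay between 0.939 and 0.971. Of all named probe sets, 0 (0%) passed the adjusted threshold of 0.05, and the lowest adjusted p by limma was 0.661. Without adjustment, 0 of the 9 genes had p under 0.05, as 3.43% of all named probe sets did. With norepinephrine, 5 genes read higher on average (Vcan, Bcan, Ncan, Tnr and Cspg5) and 4 lower (Acan, Tnc, Hapln1 and Ptprz1), while 38.0% of all named probe sets read higher. Without KCl replicate 1, 6 of the 9 read higher, against 52.2% of all. Their median difference was 0.050, against -0.075 over all named probe sets, and it was 0.032 against 0.0083 without KCl replicate 1. In Tnr and Cspg5 the 3 norepinephrine arrays did not overlap the 3 KCl arrays, as was so for 9.13% of all named probe sets, and nothing is read from a count of 2 in 9. After a further quantile normalization, which gives every array the same distribution, 4 genes read higher and 5 lower, and 43.2% of all named probe sets read higher. The groups then did not overlap in 3 other genes, Tnc and Ptprz1 (lower) and Hapln1 (higher), where 11.2% of all named probe sets did not overlap.

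**Figure D1:**
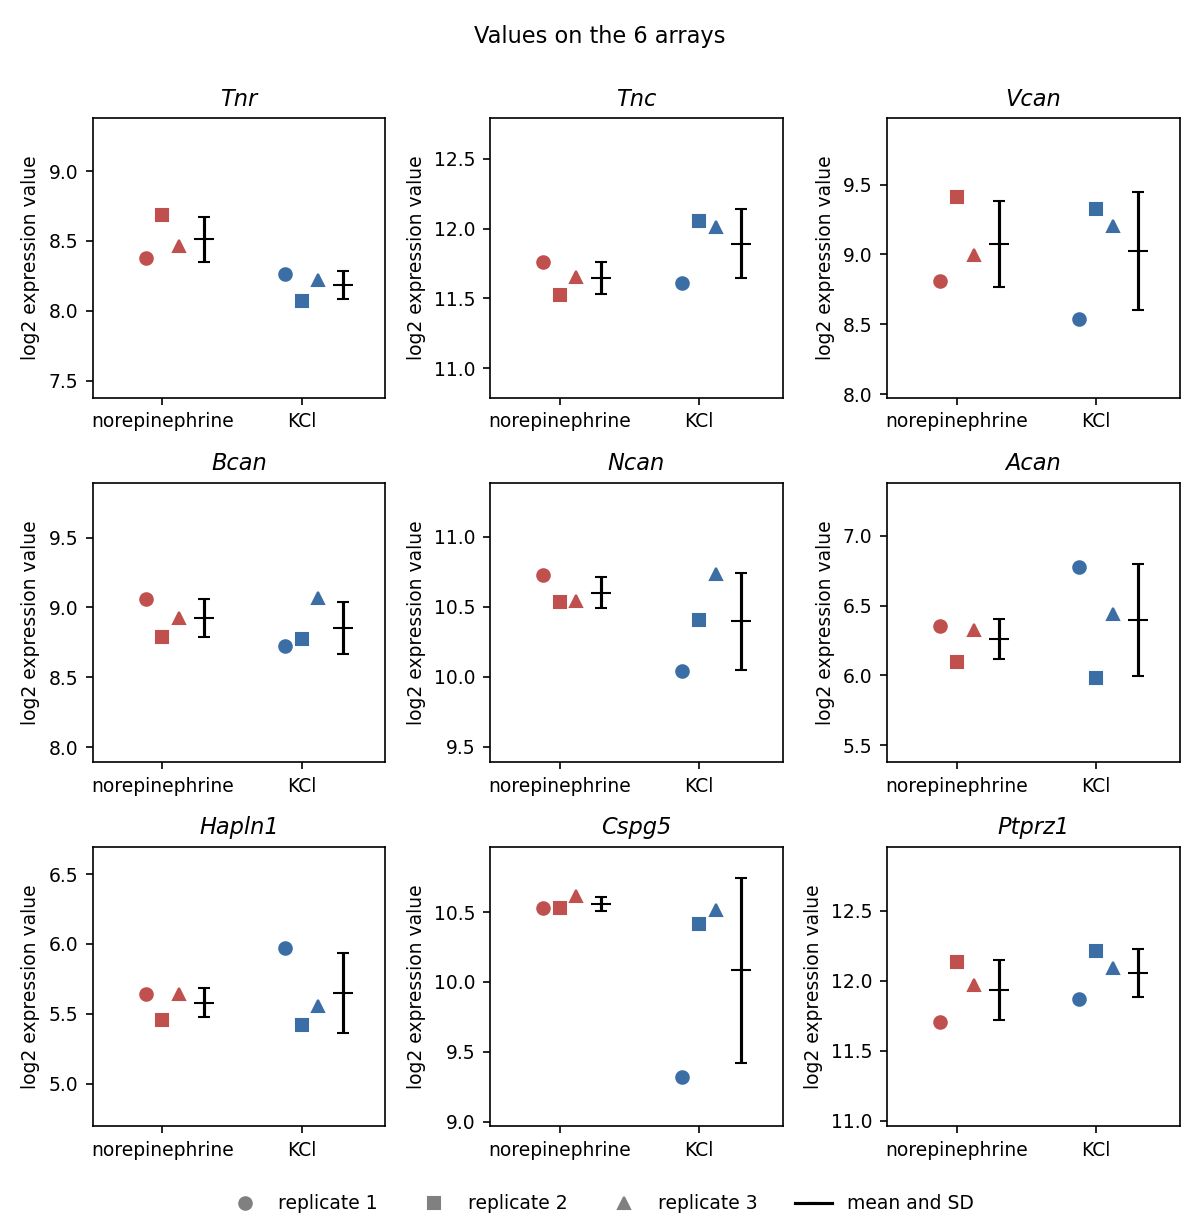
Deposited log2 expression values of the 9 genes, 1 panel a gene, with norepinephrine left of KCl. Symbols are single arrays (circle, square and triangle for replicates 1, 2 and 3), bars give mean and SD of 3 arrays, and every axis spans the same number of log2 units. Groups do not overlap in Tnr and Cspg5, and in Cspg5 KCl replicate 1 sits at 9.32, far below the other 5 arrays.

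The tenascins are multi-armed glycoproteins that cross-link the matrix. Tnr, which the oligodendrocyte lineage and some neurons make and which ties lecticans into nets, is shown with Tnc because these 2 relatives lay on opposite sides. The 250 bases before the annotated start of each gene, from RefSeq on GRCm38.p6 and in the gene's own direction, are Tnr at chr1:159523519-159523768 on the plus strand and Tnc at chr4:64047016-64047265 on the minus strand, using the outermost start where a gene has several. Capitals mark the letters TATAAA, the core of a TATA box.
Tnr: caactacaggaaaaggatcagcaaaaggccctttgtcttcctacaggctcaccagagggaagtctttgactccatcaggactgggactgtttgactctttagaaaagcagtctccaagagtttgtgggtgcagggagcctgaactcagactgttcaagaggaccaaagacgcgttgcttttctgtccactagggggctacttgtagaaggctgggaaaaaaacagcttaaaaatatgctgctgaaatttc
Tnc: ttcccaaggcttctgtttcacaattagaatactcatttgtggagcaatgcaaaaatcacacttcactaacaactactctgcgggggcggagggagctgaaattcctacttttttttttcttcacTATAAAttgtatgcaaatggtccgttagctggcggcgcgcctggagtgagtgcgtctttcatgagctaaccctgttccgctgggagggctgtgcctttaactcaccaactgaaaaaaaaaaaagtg
The Tnc window holds TATAAA at 126 to 121 bases before the start, and the Tnr window has no match on either strand. Of 27025 windows of this length, 13% hold it. Neither window has the cAMP response element TGACGTCA (1.6% of windows), its shorter form TGACG (17.8%), which lies within the longer one, or the AP-1 motif TGANTCA (6.85%), searched on both strands. Such matches describe letters only.

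Tnr read 8.38, 8.69 and 8.47 on the norepinephrine arrays and 8.26, 8.07 and 8.22 on the KCl arrays. Every norepinephrine array was above every KCl array, with a gap smaller than the range within either group. The difference was 0.33 ± 0.18 (moderated SE, n = 3 per group), a 1.25-fold value with a 95% interval from 0.938-fold to 1.68-fold. By limma the unadjusted p was 0.112, the lowest of the 9 genes, and the adjusted p was 0.939. Without KCl replicate 1 the difference was 0.37 ± 0.17, and after the further quantile normalization it was 0.17 ± 0.18, with KCl replicate 1 at 8.59 above all norepinephrine arrays.

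Tnc, the tenascin of radial glia, reactive astrocytes and stem cell niches, read 11.76, 11.53 and 11.65 with norepinephrine. On the KCl arrays it read 11.61, 12.05 and 12.01. KCl replicates 2 and 3 were above all norepinephrine arrays, whereas KCl replicate 1 fell among them. The difference was -0.25 ± 0.20, with an interval from -0.70 to 0.21 and an adjusted p of 0.939 by limma. Without KCl replicate 1 it was -0.39 ± 0.16, with an interval from -0.76 to -0.017, where the groups no longer overlapped, as in 16.2% of all named probe sets on those 5 arrays. By limma the unadjusted p on the 5 arrays was 0.0423 and the adjusted p 1.00, and 4.63% of all named probe sets had an unadjusted p under 0.05. The quantile-normalized values differed by -0.42 ± 0.14, with an unadjusted p of 0.0176 and an adjusted p of 0.886 by limma, and there too the groups did not overlap. After that step 4.60% of all named probe sets had an unadjusted p under 0.05. Tnc thus stayed below 0 in each of these settings and passed the adjusted test in none.

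The 4 lecticans are the chondroitin sulfate carriers that bind hyaluronan. Vcan, the large lectican of embryonic tissue that oligodendrocyte precursors also make, read 8.81, 9.41 and 8.995 with norepinephrine and 8.54, 9.32 and 9.20 with KCl. The groups overlapped over most of their range, and the arrays of 1 group differed among themselves by more than the group means did. Its difference was 0.050 ± 0.27, with an interval from -0.55 to 0.65, and it was -0.19 ± 0.21 without KCl replicate 1 and -0.082 ± 0.17 after quantile normalization, so no direction can be given.

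Bcan, the smallest of the lecticans, is made by astroglia and oligodendrocyte precursors. It read 9.06, 8.79 and 8.93 with norepinephrine and 8.72, 8.78 and 9.07 with KCl. The highest and the lowest of these 6 values were both KCl arrays. The difference of 0.071 ± 0.19 had an interval from -0.36 to 0.51, it was 0.0045 ± 0.18 without KCl replicate 1, and after quantile normalization it was -0.081 ± 0.20.

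Ncan, a lectican of developing brain made by neurons and astroglia, read 10.73, 10.53 and 10.54 with norepinephrine and 10.04, 10.41 and 10.74 with KCl. KCl replicate 1 was lowest and KCl replicate 3 highest of all 6. The difference was 0.21 ± 0.22, with an interval from -0.30 to 0.71. Without KCl replicate 1 it was 0.032 ± 0.18, and after quantile normalization 0.031 ± 0.19, well under its SE in both.

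Acan, the main proteoglycan of cartilage and of perineuronal nets, read 6.35, 6.09 and 6.33 with norepinephrine and 6.78, 5.98 and 6.44 with KCl. Its mean lay under the 30th percentile of all named probe sets, at 6.45, and whether it was above background could not be assessed. The KCl arrays spanned a wider range than the norepinephrine arrays and enclosed them. Its difference was -0.14 ± 0.24 (interval -0.68 to 0.40), and 0.049 ± 0.19 without KCl replicate 1.

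Hapln1, the link protein that clamps lecticans to hyaluronan, was the other gene under that percentile. It read 5.64, 5.46 and 5.64 with norepinephrine and 5.97, 5.42 and 5.56 with KCl. KCl replicate 1 was again the highest array. The difference was -0.068 ± 0.21 (interval -0.54 to 0.40), and it was 0.092 ± 0.16 without KCl replicate 1 and 0.082 ± 0.12 after quantile normalization.

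In the mouse genome each lectican gene sits beside a link protein gene. In the RefSeq annotation of GRCm38.p6 the pairs Vcan and Hapln1, Bcan and Hapln2, Acan and Hapln3, and Ncan and Hapln4 each had 0 protein-coding genes starting between them. The differences of the partners lay on the same side for Acan at -0.14 with Hapln3 at -0.18 ± 0.28, and for Ncan at 0.21 with Hapln4 at 0.20 ± 0.23. For Bcan at 0.071 with Hapln2 at -0.27 ± 0.21, and for Vcan at 0.050 with Hapln1 at -0.068, they lay on opposite sides. Without KCl replicate 1, Hapln2, Hapln3 and Hapln4 stood at -0.15, 0.12 and 0.25.

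Cspg5, also called neuroglycan C, is a membrane proteoglycan with an EGF-like domain. It had the largest difference of the 9 genes and the clearest dependence on 1 array. It read 10.53, 10.53 and 10.62 with norepinephrine, the narrowest spread of any of the 9 genes in that group (SD 0.051). With KCl it read 9.32, 10.41 and 10.52. KCl replicate 1 was more than 1 log2 unit below the other 5 arrays, and KCl replicate 3 was just under the lowest norepinephrine array. The difference was 0.47 ± 0.31, with an interval from -0.23 to 1.18, the widest of the 9 genes, and an adjusted p of 0.939 by limma. Without KCl replicate 1 it was 0.092 ± 0.16, with an interval from -0.27 to 0.45. The groups overlapped once each array was centred on its median, where 10.3% of all named probe sets did not overlap, and after quantile normalization.

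Ptprz1 is a receptor tyrosine phosphatase of radial glia and oligodendrocyte precursors, whose secreted form, phosphacan, is a matrix proteoglycan. It read 11.70, 12.13 and 11.97 with norepinephrine and 11.87, 12.21 and 12.09 with KCl. The groups overlapped, with the lowest array a norepinephrine one and the highest a KCl one. Its difference was -0.12 ± 0.20 (interval -0.58 to 0.34), and it was -0.22 ± 0.18 without KCl replicate 1 and -0.26 ± 0.15 after quantile normalization.

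**Figure D2:**
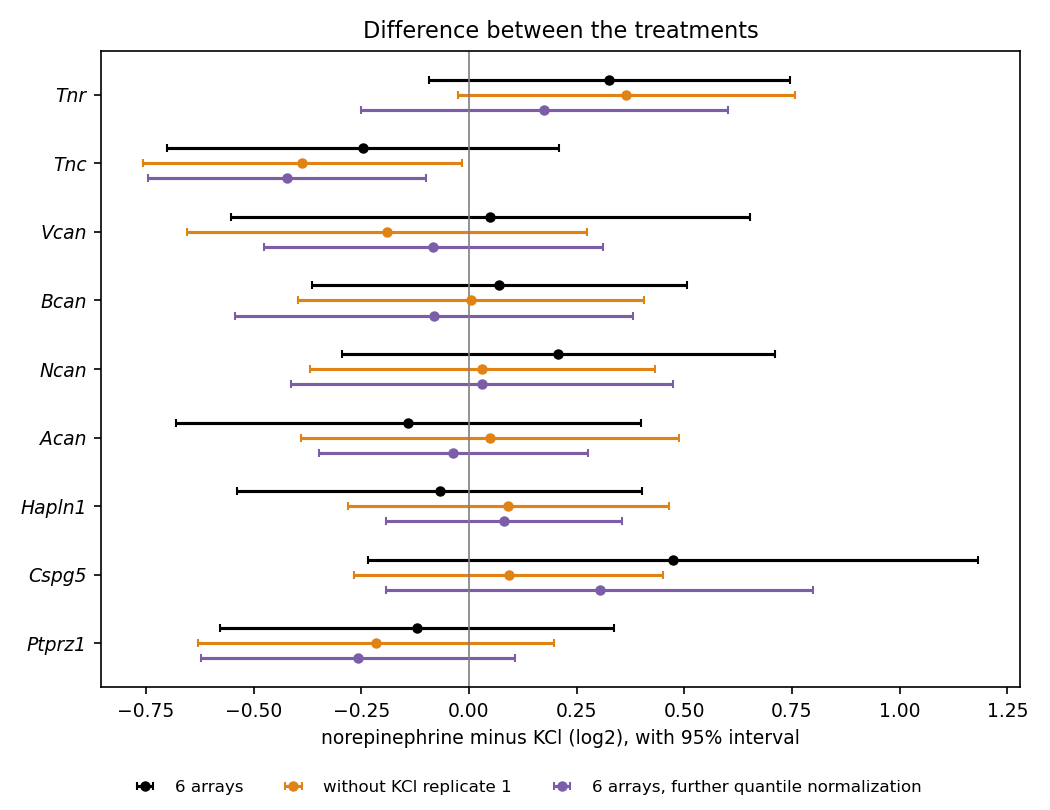
Differences of the 9 genes, norepinephrine minus KCl in log2 units, with 95% intervals from limma, on 6 arrays (black), without KCl replicate 1 (orange) and on 6 arrays after a further quantile normalization (purple). For the deposited values on 6 arrays (black) every interval spans 0, and that of Tnc excludes 0 in the other 2 settings.

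The intervals bound the size of a change that these arrays leave possible, without showing that a gene did not change. On 6 arrays they reached at most 1.18 log2 units in either direction, for Cspg5, a 2.27-fold value. For Bcan they ran from 0.777-fold to 1.42-fold, for Tnc from 0.616-fold to 1.16-fold, and for Vcan from 0.681-fold to 1.57-fold.

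Within the KCl group the 9 genes departed in opposite ways on replicate 1. Against the mean of KCl replicates 2 and 3, that array was lower by 1.15 for Cspg5, and the same departure was -0.72 for Vcan, -0.53 for Ncan, -0.42 for Tnc, -0.28 for Ptprz1 and -0.20 for Bcan. It was 0.12 for Tnr, 0.48 for Hapln1 and 0.57 for Acan. The 2 genes under the 30th percentile were thus those with the largest positive departures.

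**Figure D3:**
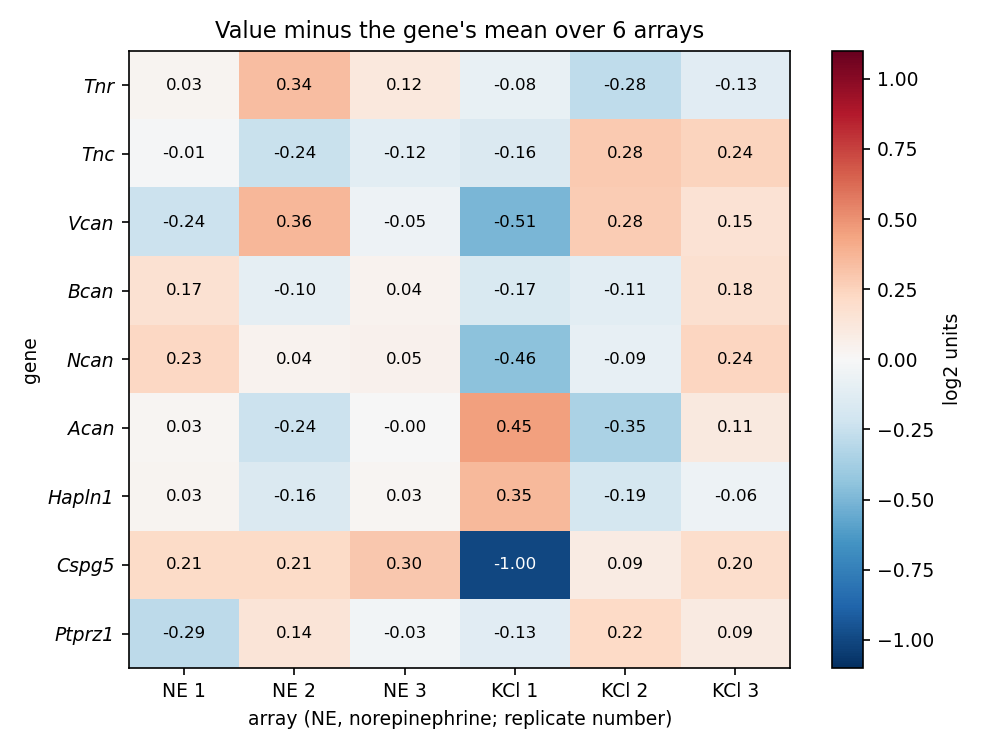
Each gene's value on each array minus its mean over the 6 arrays, in log2 units, with norepinephrine (NE) arrays on the left and KCl arrays on the right. The KCl 1 column holds the lowest cell, -1.003 for Cspg5, and also the highest cells of Acan and Hapln1, at 0.45 and 0.35.

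Likeness of pattern was described with Pearson's r over the 6 arrays, taken over genes whose mean lay above the 30th percentile. With 6 arrays and 13955 or 13956 candidate genes a high r is found for any gene, and the arrays share the departure of KCl replicate 1, so no p is given. The closest genes were Nrxn3 for Tnr (r = 0.994), Pbx3 for Tnc (0.994), Taf4b for Vcan (0.993), Phlda1 for Bcan (0.994), Ogfod1 for Ncan (0.993), Hoxb9 for Acan (1.00), Ecel1 for Hapln1 (0.999), Scd2 for Cspg5 (0.999) and Raet1d for Ptprz1 (0.988). The number of genes with r above 0.95 was 1572 for Acan, 816 for Hapln1 and 474 for Cspg5, whereas it was 7 for Tnr and 15 for Tnc.

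The genes that build, cut and bind this matrix were read from 7 lists with 131 entries, of which 128 genes were measured. None passed over all probe sets by limma (0 of 128), and 50 read higher and 78 lower with norepinephrine. An unadjusted p under 0.05 was found for 12 (9.4%), against 3.43% of all named probe sets. Of the 12, 9 read higher and 3 lower, where the shares over all named probe sets were 2.20% and 1.24%. The lists were chosen with earlier results known and were not tested as sets. The median difference was -0.067, against -0.075 over all named probe sets, and without KCl replicate 1 it was -0.024 against 0.0083. Of the list genes named below, Srgn, Gpc3 and Has3 lay under the 30th percentile, where signal over background is as open as for Acan and Hapln1. Others among the 128 lay there too, such as Lum and Itgb6, and the counts and medians include them.

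Of 11 measured enzymes that make and degrade hyaluronan or its precursors, 3 read higher and 8 lower with norepinephrine, with a median of -0.15. With KCl replicate 1 left out, 1 of 11 read higher and the median was -0.11. The hyaluronan synthases Has1, Has2 and Has3 stood at -0.29 ± 0.28, -0.057 ± 0.22 and -0.30 ± 0.18, and at -0.049, -0.0091 and -0.27 without KCl replicate 1. Has3 read 6.05, 5.99 and 6.15 with norepinephrine and 6.42, 6.48 and 6.19 with KCl, so its groups did not overlap. Ugdh, which makes the UDP-glucuronate that hyaluronan and chondroitin chains need, stood at -0.49 ± 0.30. Hexa, a lysosomal hexosaminidase, stood at 0.73 ± 0.47 and at 0.11 without KCl replicate 1, on which it read 6.66 against 8.29 to 8.82 elsewhere.

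Among 14 hyaluronan receptors and binders, 5 read higher, 2 of them at an unadjusted p under 0.05, and the median was -0.10. On the 5 arrays other than KCl replicate 1, 8 of the 14 read higher and the median was 0.040, so the list has no settled direction. Layn, the membrane hyaluronan receptor layilin, read 8.38, 8.49 and 8.14 with norepinephrine and 6.83, 7.80 and 7.92 with KCl, a difference of 0.82 ± 0.30. Tnfaip6, a secreted protein that alters hyaluronan by transferring proteins onto it, read 9.43, 9.26 and 9.25 with norepinephrine and 7.85, 9.22 and 8.59 with KCl, a difference of 0.76 ± 0.32. In both the groups did not overlap. The differences were 0.48 and 0.41 without KCl replicate 1, and neither gene passed (adjusted p = 0.939 by limma). Itih5 and Hmmr stood at 0.47 ± 0.22 and 0.52 ± 0.36, while Cd44, the main cell-surface hyaluronan receptor, stood at 0.10 ± 0.24. These 3 genes stood at 0.53, 0.20 and -0.12 without KCl replicate 1.

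The 26 enzymes and transporters of chondroitin sulfate synthesis had a median of -0.034, with 10 higher and 16 lower, and without KCl replicate 1 a median of -0.037, again with 10 higher. Chst7, a sulfotransferase, read 7.63, 6.89 and 7.38 with norepinephrine and 7.73, 7.90 and 8.49 with KCl, a difference of -0.74 ± 0.27 (unadjusted p = 0.0245 and adjusted p = 0.939 by limma). It was the 1 gene of this list with an unadjusted p under 0.05, and its groups did not overlap. The synthase Chsy3, the epimerase-related Dsel and the sulfotransferase Ust stood at -0.44 ± 0.22, -0.41 ± 0.20 and -0.36 ± 0.19, also without overlap, and at -0.53, -0.25 and -0.31 without KCl replicate 1. In this list 5 genes did not overlap in the lower direction and 0 in the higher one, where 4.77% and 4.36% of all named probe sets did.

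Of 19 proteases that cut lecticans and tenascins, with their inhibitors and partners, 10 read higher, with a median of 0.016. The count higher was 8 and the median -0.029 without KCl replicate 1. The metalloproteinase inhibitor Timp1 and the gelatinase Mmp2 stood at 0.90 ± 0.26 and 0.48 ± 0.19. Timp2, another inhibitor, stood at 0.49 ± 0.24 and Fbln2, a ligand of lecticans, at 0.23 ± 0.22, or 0.044 without KCl replicate 1.

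Of 31 ligands, receptors and partners of the 9 genes, 15 read higher and 16 lower, with a median of -0.013. Leaving out KCl replicate 1 gave 17 higher and a median of 0.022. Mdk, the growth factor midkine and a ligand of Ptprz1, read 8.28, 8.12 and 7.87 with norepinephrine and 7.67, 6.71 and 7.43 with KCl. All 3 norepinephrine arrays were above the KCl arrays, and the difference was 0.82 ± 0.27, or 1.02 ± 0.24 without KCl replicate 1. Cntn1, the contactin that binds Tnr and Ptprz1, stood at 0.83 ± 0.35, and at 0.41 ± 0.19 without that array. Fibronectin (Fn1) and the tenascin-binding integrin subunit Itga9 stood at 0.77 ± 0.31 and -0.47 ± 0.19. Ptn, the growth factor pleiotrophin and the other main ligand of Ptprz1, stood at 0.048 ± 0.18, and at -0.040 without that array. By limma the adjusted p of Mdk, Cntn1, Fn1 and Itga9 was 0.939 for each.

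Among 22 proteoglycans outside the lectican family, 6 read higher and 16 lower, with a median of -0.11. When KCl replicate 1 was left out, 11 of the 22 read higher and the median was -0.022. Biglycan (Bgn), a small leucine-rich proteoglycan, read 7.10, 7.53 and 7.12 with norepinephrine and 6.57, 5.67 and 6.51 with KCl. Its groups did not overlap, and the difference of 1.00 ± 0.28 was 1.16 ± 0.26 without KCl replicate 1 (adjusted p = 0.939 on 6 arrays by limma). Syndecan 2 (Sdc2) stood at 0.80 ± 0.34 and at 0.37 without that array, serglycin (Srgn) at -0.63 ± 0.24 and glypican 3 (Gpc3) at -0.54 ± 0.25, or -0.35 without that array. The 5 remaining tenascins and link proteins had a median of -0.18, with 1 higher and Tnxb at -0.26 ± 0.26. Of the 5, 3 read higher without KCl replicate 1, where the median was 0.036 and Tnxb stood at -0.036.

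**Figure D4:**
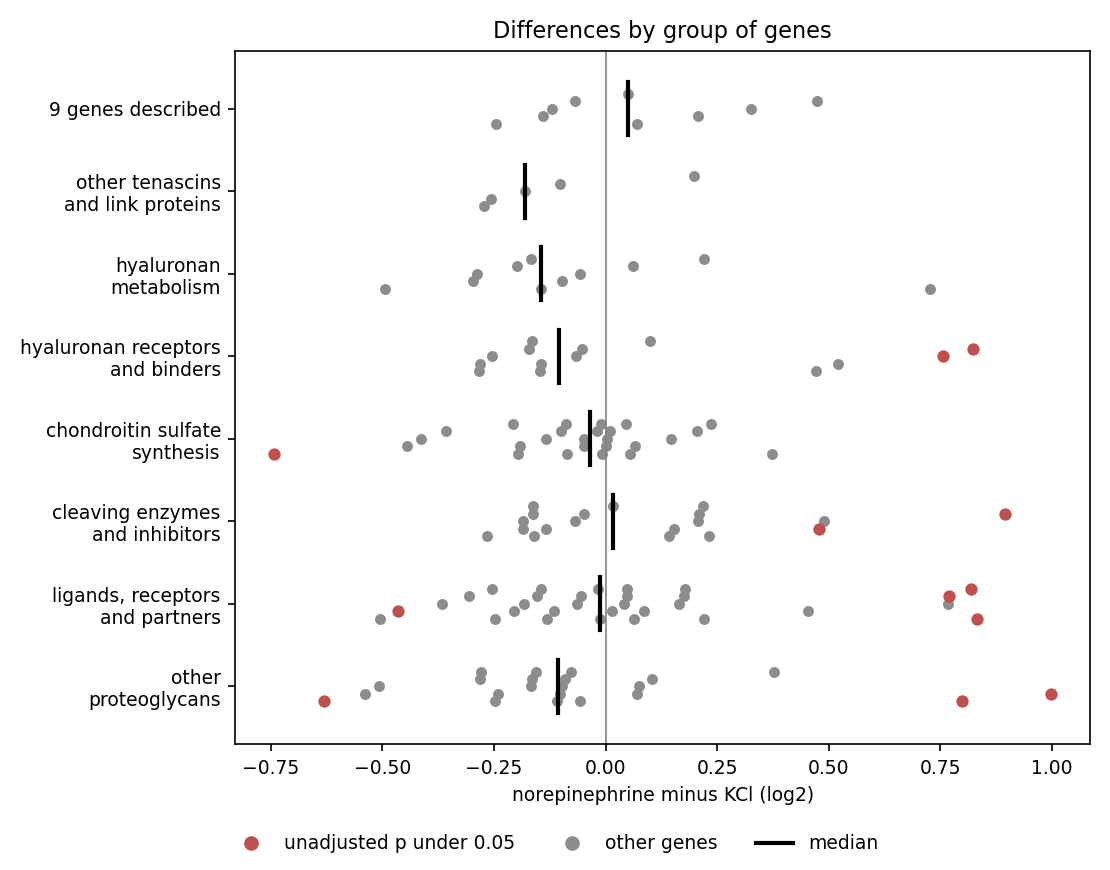
Difference of every measured gene, norepinephrine minus KCl in log2 units, for the 9 genes and for 7 lists of genes of the same matrix. Points are genes, red where the unadjusted p of limma was under 0.05, and black bars are medians, at 0.050 for the 9 genes and between -0.18 and 0.016 for the lists.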

How the data were processed

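RNA from 6 neurosphere samples, 3 per treatment, was measured on 1 array each. The authors deposited 1 log2 value for each probe set and array. Partek and RMA are named in the submitters' processing notes, with neither version nor settings. Of 34760 probe sets, 21640 carried 1 gene symbol, 1321 several and 11799 none. By Entrez identifier 21553 matched RefSeq (GRCm38.p6), which changed 0 symbols.

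Groups were taken from sample titles. limma 3.58.1 in R 4.3.3 (lmFit, eBayes) was fitted to the 21640 probe sets. Tests were two-sided, p-values were adjusted over all of these by Benjamini-Hochberg, and the threshold was 0.05. Values of the 9 genes and of the lists were read from that fit, after the code was tested on simulated data. A gene was represented by the probe set of highest mean. All 9 genes were named, with up to 4 genes of smallest p per list and the 1 gene of highest Pearson's r for each. Has2, Cd44 and Ptn were added after their values were seen. The 9 genes and the lists were chosen with earlier results of these data known. Alternatives were a further quantile normalization, centring, a filter at the 30th percentile, trend and robust moderation, array weights, the replicate block, averaging of probe sets and leaving out each array. Promoter windows came from RefSeq and were matched for 8 of the 9 genes, Cspg5 not being among them.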

Additional observations from a re-analysis of the deposited data

How the results depend on the processing

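Tnc stayed lower, Ptprz1 lower, and Tnr and Cspg5 higher with norepinephrine under all 14 alternatives, over -0.42 to -0.17, -0.26 to -0.0058, 0.17 to 0.39 and 0.087 to 0.69. The filter at the 30th percentile, trend and robust moderation, the replicate block and averaging of probe sets cannot change these differences. Only the other alternatives could move a side. None of the 9 genes passed the adjusted threshold under any of the 14, and that filter left out Acan and Hapln1. The difference of Vcan changed side after quantile normalization (-0.082), with gene-by-gene array weights (-0.20) and without norepinephrine replicate 2 (-0.12) or KCl replicate 1 (-0.19). Bcan did so after quantile normalization (-0.081) and with those weights (-0.093), Ncan with those weights (-0.10), and Acan without KCl replicate 1 (0.049). Hapln1 did so after quantile normalization (0.082), with those weights (0.055) and without KCl replicate 1 (0.092). When arrays were left out, Vcan ranged from -0.19 to 0.20, Acan from -0.35 to 0.049 and Hapln1 from -0.18 to 0.092. The causes were not tested.

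The number of the 9 genes whose groups do not overlap was 1 after centring, against 2 as reported, and ranged from 2 to 4 when arrays were left out, with 4 without KCl replicate 3. The number read higher was 3 with gene-by-gene weights and 4 to 6 when arrays were left out. Over all probe sets, those at an unadjusted p under 0.05 were 475 higher and 268 lower. Those lower were 448 after quantile normalization and 161 above the 30th percentile. Leaving out arrays gave 199 to 1870 higher and 109 to 1662 lower, and 0 to 4 at the adjusted threshold, the 4 without KCl replicate 1.

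Equal replicate numbers are not said to share an animal or culture, so same-numbered samples were not paired. Their deviations correlated at 0.30, 0.63 and 0.085, over the mark of 0.1 set for pairing in replicates 1 and 2. A shared origin therefore remains possible. The replicate block gave 918 higher and 518 lower probe sets at an unadjusted p under 0.05. Array weights by REML stopped before convergence, with a weight of 673 for KCl replicate 3, and are not used. That run called 5670 of the 21640 named probe sets, with Tnc (adjusted p = 0.00854 by limma) and Tnr (0.0324) among them. With so large a share called, nothing is read from either gene. Gene-by-gene weights, added after the data were seen, gave that array 6.76 and the others 0.158 to 2.53. They called 1454 of 21640 probe sets (2421 higher and 2743 lower at an unadjusted p under 0.05) and none of the 9 genes. Called in the lists were 3 of 14 hyaluronan receptors, 2 of 26 chondroitin sulfate genes and 3 of 19 cleaving enzymes. So were 3 of 31 ligands and receptors and 6 of 22 other proteoglycans. With no scanner files, signal over background could not be assessed for any gene, which matters most for dim ones.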
